A study of Homo sapiens with 9 samples.

Results

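Tight junctions were followed here through 9 genes, the claudins CLDN1, CLDN3, CLDN4, CLDN7 and CLDN12, the membrane proteins OCLN and F11R, and the scaffolds TJP1 and TJP3. They were listed by name as members of the junction, with earlier results of these data known, among them that CLDN1 and CLDN4 move apart, and each symbol was matched to 1 Entrez gene number of the deposited table, so that they make up 9 of its 16750 genes. Of the 9, 7 reached the expression filter, and they stand among 14554 genes tested. CLDN3 and CLDN7 were under 1 CPM in all 9 libraries and are described by their reads. RNA was sequenced from PANC-1, a human line from a carcinoma of the pancreatic duct, after lentiviral transduction and selection with puromycin. The groups were SLC22A10_OE, which carried pLV-SLC22A10, SLC22A15_OE, which carried pLV-SLC22A15, and vector, which carried the empty pLV-EV, with 3 libraries each. All 3 were grown under puromycin. SLC22A10 and SLC22A15 belong to a family of organic ion transporters of the plasma membrane. The labels call the groups clones but do not say how many clones each holds, so that a trait of a clone and an effect of the transduced gene cannot be told apart. Both comparisons with vector use the same 3 vector libraries.

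Tight junctions ring epithelial cells near their apical surface, close the space between neighbours and hold apical and lateral membrane apart. Claudins span the membrane and pair across the gap, and the claudins that a cell makes decide which ions and small solutes can pass between cells. Occludin and the junctional adhesion molecules lie beside the claudins, and the zonula occludens proteins, encoded by the TJP genes, tie their tails to actin below. In the pancreas the duct epithelium is closed by such junctions, and carcinoma lines that have taken on mesenchymal traits often make less of them.

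Library totals recovered from the deposited values ran from 28.4 to 42.9 M reads (1 M is 1e+06 reads). Levels are given in CPM, reads per 1e+06 reads of a library after the authors' scaling, and differences as log2 fold changes of CPM + 1, which understate the change of genes with low levels. SLC22A10 had 3115, 3194 and 2347 reads in the SLC22A10_OE libraries, 0 in each SLC22A15_OE library, and 0, 1 and 0 in the vector libraries. The other transporter, SLC22A15, stood at 75.9 ± 2.48 CPM in SLC22A15_OE, 3.84 ± 0.357 CPM in SLC22A10_OE and 6.11 ± 0.571 CPM in vector (SD, n = 3 each), and it was lower in SLC22A10_OE than in vector (-0.56, limma adjusted p = 9.28e-05). In 1 library of each group (SLC22A10_OE 3, SLC22A15_OE 1 and vector 1) the mitochondrial ribosomal RNAs took 0.0151%, 0.0111% and 0.00958% of the reads, below the other 2 of its group. Of the duct markers KRT8, KRT18, KRT19 and SOX9 were well above the filter (47.5 to 216 CPM as group means), whereas KRT7 was at 0.183 to 0.449 CPM and EPCAM and CDH1 were not analysed here. VIM, the intermediate filament protein of mesenchymal cells, was at 3390 ± 101 CPM in SLC22A10_OE, 2621 ± 85.3 CPM in SLC22A15_OE and 3091 ± 94.3 CPM in vector. Of the 3 mesenchymal markers tested (limma, a pass being an adjusted p under 0.05), VIM was higher in SLC22A10_OE (0.13), and FN1 (fibronectin, -0.38) and ZEB1 (-0.28) were lower. In SLC22A15_OE VIM (-0.24) and ZEB1 (-0.31) were lower, and FN1 did not pass (-0.0023). Over all genes tested, 67.2% passed in SLC22A10_OE and 20.4% in SLC22A15_OE. Nothing in the labels says that the libraries of a group came from separate cultures, so each p-value reflects the spread of these 9 libraries alone, and that spread may be technical.

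In both overexpressing lines CLDN4 was higher and CLDN1 lower than in vector. CLDN4, a claudin of tight epithelia that limits the passage of cations and also serves as a receptor for an enterotoxin of Clostridium perfringens, was 13.1-fold higher in SLC22A10_OE and 3.19-fold higher in SLC22A15_OE than in vector, as ratios of mean CPM. CLDN1, the claudin that the skin barrier cannot do without, was at 0.26 of the vector level in SLC22A10_OE and at 0.445 of it in SLC22A15_OE. In a bulk measurement, fewer cells with a transcript and less of it in every cell cannot be told apart.

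CLDN4 measured 103, 113 and 128 CPM in SLC22A10_OE libraries 1 to 3, then 31.5, 26.9 and 25.5 CPM in SLC22A15_OE, against 9.57, 8.13 and 8.59 CPM in vector. No library of one group reached into the range of another, and SLC22A10_OE was the highest of the 3. The log2 fold change against vector was 3.56 (SE 0.095) in SLC22A10_OE and 1.57 (SE 0.095) in SLC22A15_OE (limma, Benjamini-Hochberg adjusted p = 1.15e-11 and 1.27e-07). Between the overexpressing lines, SLC22A10_OE minus SLC22A15_OE was 2.00 (SE 0.095, limma adjusted p = 4.98e-09). By size of change CLDN4 was the 9th highest of 14554 genes in SLC22A10_OE and the 18th highest in SLC22A15_OE.

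CLDN1 measured 31.0, 30.0 and 31.7 CPM in SLC22A10_OE libraries 1 to 3, then 52.9, 51.5 and 54.6 CPM in SLC22A15_OE, against 117, 121 and 119 CPM in vector. The groups were again apart in every library, in the reverse order of CLDN4. The log2 fold change against vector was -1.91 (SE 0.050) in SLC22A10_OE and -1.15 (SE 0.050) in SLC22A15_OE (limma, adjusted p = 1.01e-11 and 6.74e-09). SLC22A10_OE minus SLC22A15_OE was -0.76 (SE 0.050, adjusted p = 7.14e-08). CLDN1 was the 30th lowest change of 14554 genes in SLC22A10_OE and the 56th lowest in SLC22A15_OE. In the authors' deposited table the log2 fold changes were 3.71 and 1.67 for CLDN4 and -1.95 and -1.17 for CLDN1, in SLC22A10_OE and in SLC22A15_OE in turn.

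**Figure D1:**
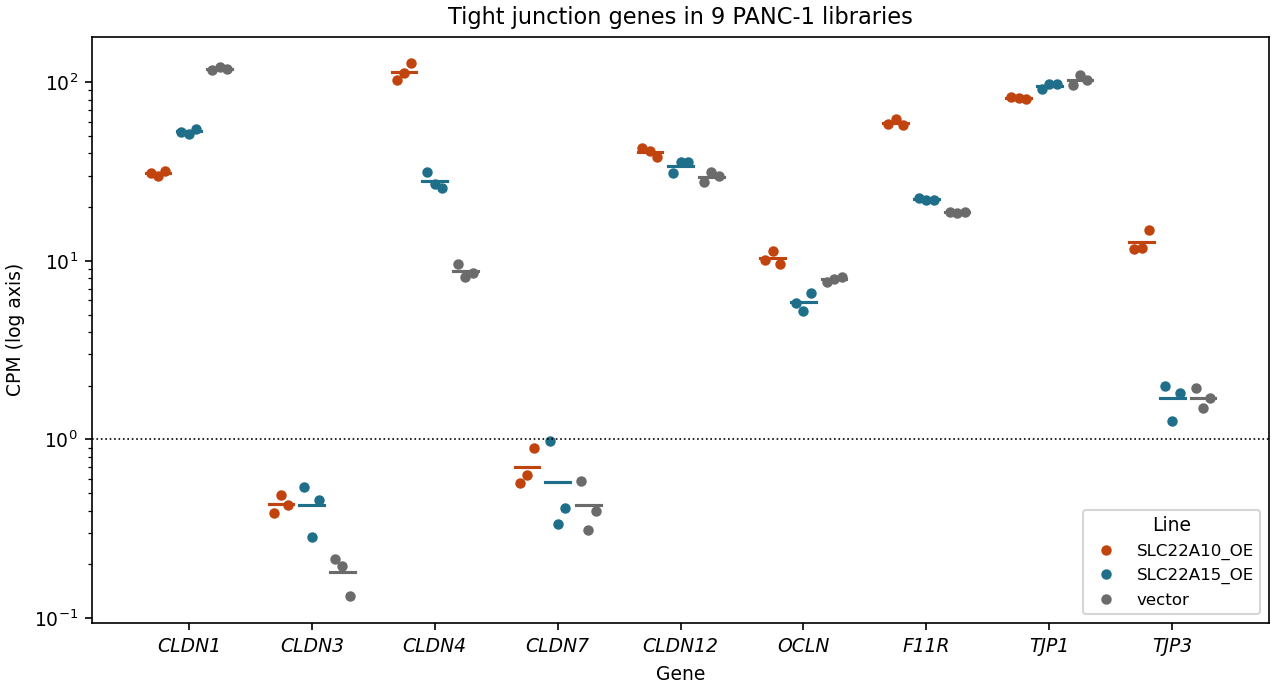
CPM (log axis) of the 9 tight junction genes, 1 point per library and a bar at the mean of each group, with the dotted line at the filter of 1 CPM. CLDN4 lies at 103 to 128 CPM in SLC22A10_OE, against 8.13 to 9.57 CPM in vector, and CLDN1 takes the reverse order of groups, while CLDN3 and CLDN7 stay below the line.

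CLDN4 lies in 1 exon on the plus strand of chromosome 7 (chr7:73830996-73832690), and CLDN1 in 4 exons on the minus strand of chromosome 3 (chr3:190305707-190322446), in RefSeq on GRCh38.p14. The 250 bases before the annotated start are shown for both, since these genes moved apart, and for TJP3, the member with the largest difference between the overexpressing lines. They lie at chr3:190322447-190322696 (minus strand), chr7:73830746-73830995 (plus strand) and chr19:3708134-3708383 (plus strand). Capitals mark matches, on either strand, to short motifs: TGANTCA of AP-1, GGAAG of the ETS family, GGGCGG of the GC box, CACCTG of the E-box bound by the SNAI and ZEB families, and CATTCC of the TEAD family.
CLDN1: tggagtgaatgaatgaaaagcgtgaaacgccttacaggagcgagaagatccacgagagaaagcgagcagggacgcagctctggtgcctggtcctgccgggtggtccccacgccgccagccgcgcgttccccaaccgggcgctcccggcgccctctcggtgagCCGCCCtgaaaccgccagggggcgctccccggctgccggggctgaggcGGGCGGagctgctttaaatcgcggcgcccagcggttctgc
CLDN4: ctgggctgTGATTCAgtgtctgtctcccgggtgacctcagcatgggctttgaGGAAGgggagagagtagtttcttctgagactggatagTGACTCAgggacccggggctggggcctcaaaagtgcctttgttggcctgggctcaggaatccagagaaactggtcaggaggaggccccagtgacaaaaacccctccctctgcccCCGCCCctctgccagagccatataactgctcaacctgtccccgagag
TJP3: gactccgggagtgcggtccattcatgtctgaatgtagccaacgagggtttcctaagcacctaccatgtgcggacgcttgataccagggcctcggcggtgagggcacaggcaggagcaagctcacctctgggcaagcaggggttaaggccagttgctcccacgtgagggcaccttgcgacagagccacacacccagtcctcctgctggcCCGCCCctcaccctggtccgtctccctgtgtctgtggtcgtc
The CLDN4 window holds 2 AP-1 matches, beginning 242 and 161 bases before the start, 1 ETS match at 198 and 1 GC box at 47. That of CLDN1 holds 2 GC boxes, at 88 and 40, and that of TJP3 1 GC box, at 42. None of the 3 windows holds the E-box or the TEAD letters. Of 35116 RefSeq windows of the same length, 6.57% held the AP-1 letters, 65.1% the ETS letters, 42.6% the GC box, 17.5% the E-box and 11.9% the TEAD letters. Windows were found for 8 of the 9 genes, all but F11R, and no other of the 8 held AP-1 letters. A match is a stretch of letters and not a measured binding site.

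The scaffolds split. TJP3 (ZO-3), a zonula occludens protein found mainly in epithelia, was higher in SLC22A10_OE, while TJP1 (ZO-1), the scaffold present in most cells that touch each other, was slightly lower there. TJP3 measured 11.7, 11.8 and 14.9 CPM in SLC22A10_OE, then 2.00, 1.27 and 1.82 CPM in SLC22A15_OE, against 1.94, 1.49 and 1.70 CPM in vector. The SLC22A10_OE libraries lay far above all others, and those of SLC22A15_OE and vector were mixed. The log2 fold change was 2.34 (SE 0.13) in SLC22A10_OE (limma, adjusted p = 7.54e-09) and -0.012 in SLC22A15_OE (95% interval -0.30 to 0.27, adjusted p = 0.962). SLC22A10_OE minus SLC22A15_OE was 2.36 (SE 0.13, adjusted p = 1.71e-08), the 20th highest of all genes tested. The authors' deposited table, without the added 1 CPM, gave 2.90 for SLC22A10_OE and -0.013 for SLC22A15_OE.

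TJP1 measured 82.5, 81.2 and 80.1 CPM in SLC22A10_OE, then 91.1, 97.8 and 98.0 CPM in SLC22A15_OE, against 96.0, 109 and 103 CPM in vector. SLC22A10_OE was below every other library, and SLC22A15_OE overlapped vector. The change was -0.33 (SE 0.056) in SLC22A10_OE (limma, adjusted p = 0.000158) and -0.10 (95% interval -0.22 to 0.020) in SLC22A15_OE (adjusted p = 0.241). With the column number as a block in a fit of SLC22A15_OE and vector alone, the adjusted p of SLC22A15_OE against vector was 0.0143 (limma), and with a term for the libraries of low mitochondrial ribosomal RNA it was 0.0283. Without those 3 libraries the change was -0.11 (adjusted p = 0.0555). These fits gave far smaller p-values to a near-equal change. CLDN1 in SLC22A15_OE had adjusted p = 2.42e-27, 1.59e-20 and 1.87e-16 in them (limma), against 6.74e-09 in the main fit. Their p-values are thus not on a level with those of the main fit.

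Of the other membrane proteins, F11R (JAM-A), an adhesion molecule of the immunoglobulin superfamily that helps to seed junctions, was the more changed. It measured 58.6, 62.2 and 57.5 CPM in SLC22A10_OE, then 22.4, 21.9 and 22.0 CPM in SLC22A15_OE, against 18.8, 18.6 and 18.7 CPM in vector. All 3 groups were apart, with SLC22A10_OE 3.18 times and SLC22A15_OE 1.18 times the vector mean. The log2 fold changes were 1.62 (SE 0.058) and 0.23 (SE 0.058), with limma adjusted p = 1.57e-10 and 0.0135, and SLC22A10_OE minus SLC22A15_OE was 1.39 (adjusted p = 2.29e-09). The SD over the vector libraries was 0.0944 CPM, which is less than counting error alone would give. At the 610 reads of vector 1 the counting SD is 4.05%, so this closeness is no measure of precision.

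OCLN (occludin), a protein of the MARVEL family that adds to the stability of the junction, was higher in 1 line and lower in the other. It measured 10.1, 11.3 and 9.64 CPM in SLC22A10_OE, then 5.84, 5.25 and 6.63 CPM in SLC22A15_OE, against 7.63, 7.93 and 8.17 CPM in vector. Vector stood between the lines, with no overlap. The change was 0.35 (SE 0.097) in SLC22A10_OE (limma, adjusted p = 0.00674) and -0.37 (SE 0.097) in SLC22A15_OE (adjusted p = 0.0158), and the difference between the lines was 0.72 (SE 0.097, adjusted p = 3.29e-05). Both changes against vector were near the threshold. With each library centred on its median, the first was 0.23 (adjusted p = 0.0539), and the second was -0.30 (0.0773) without SLC22A15_OE 2 and -0.35 (0.0635) without vector 3. Centring also took the median over all genes from 0.0046 to -0.12 in SLC22A10_OE against vector. OCLN also has a known pseudogene copy, whose sequence was not compared here, and no source used here says how the authors' counting treated shared reads.

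CLDN12, a claudin without the tail motif by which most others bind the scaffolds, measured 43.0, 41.0 and 38.4 CPM in SLC22A10_OE, then 30.9, 35.8 and 35.5 CPM in SLC22A15_OE, against 27.6, 31.4 and 29.8 CPM in vector. SLC22A10_OE was above every library of the other groups, and SLC22A15_OE 1 lay inside the vector range. The change was 0.45 (SE 0.075) in SLC22A10_OE (limma, adjusted p = 0.000157) and 0.19 (95% interval 0.032 to 0.36) in SLC22A15_OE (adjusted p = 0.0896). SLC22A10_OE minus SLC22A15_OE was 0.26 (adjusted p = 0.00967), and 0.16 (adjusted p = 0.0858) with each library centred on its median. For SLC22A15_OE against vector the limma adjusted p was 0.00225 with the column number as a block in a fit of these groups alone, 0.00214 with the term for mitochondrial ribosomal RNA, and 0.00793 without the 3 libraries of low content (0.21). As stated for TJP1, the p-values of these fits are not on a level with those of the main fit. Without SLC22A15_OE 1 alone the difference was 0.26 (adjusted p = 0.0280). In the annotation CLDN12 overlaps GTPBP10 and CDK14 on the same strand, so that reads could be shared. CLDN12 lies on chromosome 7, whose tested genes had a median of 0.16 in SLC22A15_OE against vector.

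CLDN3 and CLDN7, claudins that many duct epithelia make together with CLDN4, were at a very low level in all 3 groups. CLDN3 had 15, 17 and 12 reads in SLC22A10_OE, 17, 11 and 20 reads in SLC22A15_OE, and 7, 7 and 5 reads in vector. Its pooled reads, scaled to library size, were 2.41 times the vector level in SLC22A10_OE (95% exact interval 1.38 to 4.38) and 2.36 times in SLC22A15_OE (1.36 to 4.25), for counting error only. In a limma fit of all genes without the filter, CLDN3 had a log2 fold change of 0.28 (adjusted p = 0.0288) in SLC22A10_OE and 0.27 (adjusted p = 0.0905) in SLC22A15_OE. In the authors' deposited table it had 1.25 (FDR 0.0219) and 1.22 (FDR 0.0666). CLDN7 had 22, 22 and 25 reads in SLC22A10_OE, 31, 13 and 18 reads in SLC22A15_OE, and 19, 11 and 15 reads in vector, with the groups overlapping. Its ratio to vector was 1.60 (1.08 to 2.38) in SLC22A10_OE and 1.29 (0.862 to 1.93) in SLC22A15_OE, and it overlaps ELP5 on the other strand. In the fit without the filter CLDN7 did not pass, with 0.25 (limma adjusted p = 0.160) in SLC22A10_OE and 0.12 (adjusted p = 0.640) in SLC22A15_OE.

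Against vector, all 7 tested genes passed the threshold in SLC22A10_OE, 5 higher (F11R, TJP3, OCLN, CLDN4 and CLDN12) and 2 lower (TJP1 and CLDN1), where 67.2% of all genes tested passed, 34.7% higher and 32.5% lower. Their share is thus read against a background in which most genes passed. A change of at least 2-fold with a pass was found in 4 of the 7 (F11R, TJP3, CLDN1 and CLDN4), beside 8.68% of all genes. The movement of CLDN1 and CLDN4 was known when the genes were listed, so nothing is read from their part in these counts, here or in the other comparisons. In all 7 the SLC22A10_OE and vector libraries did not overlap, which held for 69.2% of the genes tested. In SLC22A15_OE 4 of the 7 passed, with CLDN4 and F11R higher and CLDN1 and OCLN lower, against 20.4% of all genes, 10.8% higher and 9.58% lower. The libraries of these 4 did not overlap with vector, which held for 34.7% of the genes tested. CLDN1 and CLDN4 were the members past 2-fold there, where 0.955% of all genes were. Between the overexpressing lines all 7 passed, 5 higher in SLC22A10_OE and 2 lower, against 62.9% of all genes, 32.1% higher and 30.8% lower. In all 7 the libraries of the lines did not overlap, which held for 67.4% of the genes tested, and F11R, TJP3 and CLDN4 passed with a change of at least 2-fold, beside 5.92% of all genes.

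The median log2 fold change of the 7 was 0.45 in SLC22A10_OE, -0.012 in SLC22A15_OE and 0.72 between the lines, beside 0.0046, 0.0056 and 0.0020 over all genes. The median size of change over all genes, whatever the sign, was 0.32, 0.12 and 0.29. Centring each library on its median moved every difference of SLC22A10_OE against vector by -0.12 and left the direction of all 7 as it was. The median over all genes was then -0.12 in SLC22A10_OE and -0.093 between the lines, and no longer near 0. Without the 3 libraries of low mitochondrial ribosomal RNA, 7, 5 and 7 members passed in these comparisons. The p-values of that fit were not on a level with those of the main fit.

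**Figure D2:**
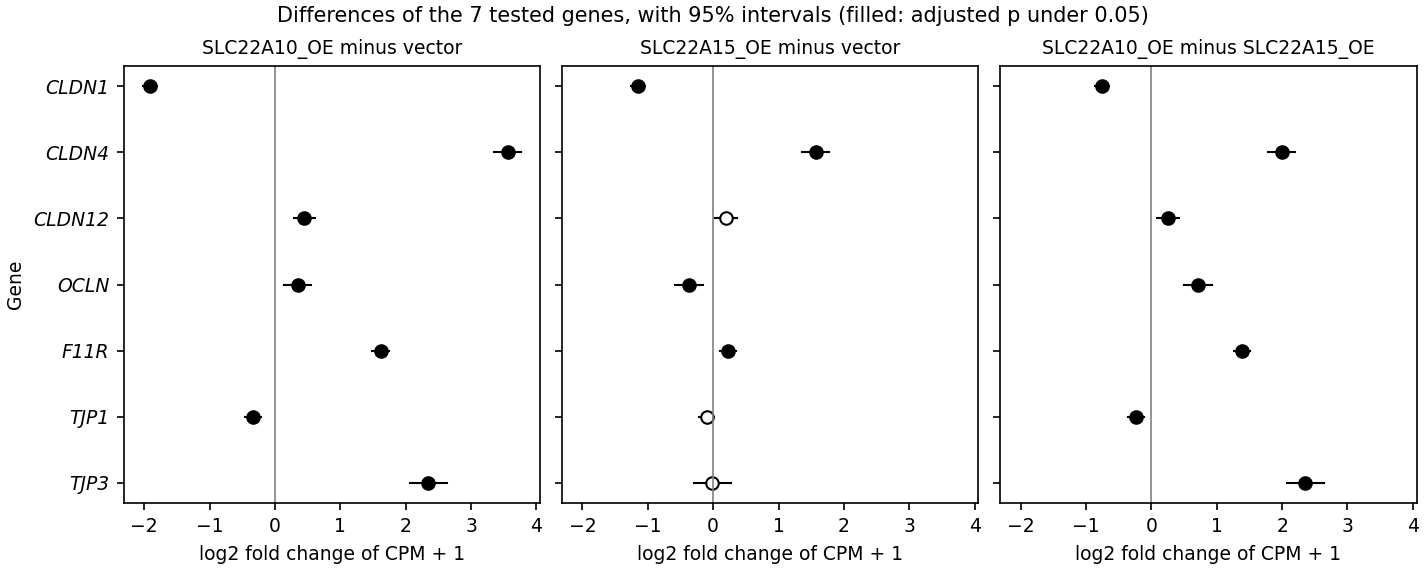
log2 fold change of CPM + 1 for the 7 tested genes in each comparison, with 95% intervals from limma and filled points for an adjusted p under 0.05. CLDN1 and CLDN4 lie on opposite sides of 0 in all 3 panels, and OCLN lies above 0 in SLC22A10_OE minus vector (0.35) and below it in SLC22A15_OE minus vector (-0.37).

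Levels of different genes were compared per length, as CPM per kb of the union of a gene's exons in GENCODE release 29. On this scale CLDN4 was at 24.3 ± 2.66 CPM per kb in SLC22A10_OE, 5.95 ± 0.670 in SLC22A15_OE and 1.86 ± 0.156 in vector. CLDN1 was at 8.44 ± 0.234, 14.5 ± 0.428 and 32.5 ± 0.597 CPM per kb in the same groups. The ratio of CLDN4 to CLDN1 was 2.88 ± 0.28 in SLC22A10_OE, 0.411 ± 0.051 in SLC22A15_OE and 0.0574 ± 0.0058 in vector. CLDN4 was thus the higher of the pair in SLC22A10_OE and the lower in both other groups.

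The absolute ratio depends on the length used, since long annotated isoforms give CLDN4 a union of 4.702 kb against 1.831 kb for its longest transcript with a RefSeq record. With the RefSeq transcripts the ratio was 7.04 ± 0.68 in SLC22A10_OE, 1.00 ± 0.12 in SLC22A15_OE and 0.140 ± 0.014 in vector, so that CLDN4 and CLDN1 overlapped in SLC22A15_OE.

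**Figure D3:**
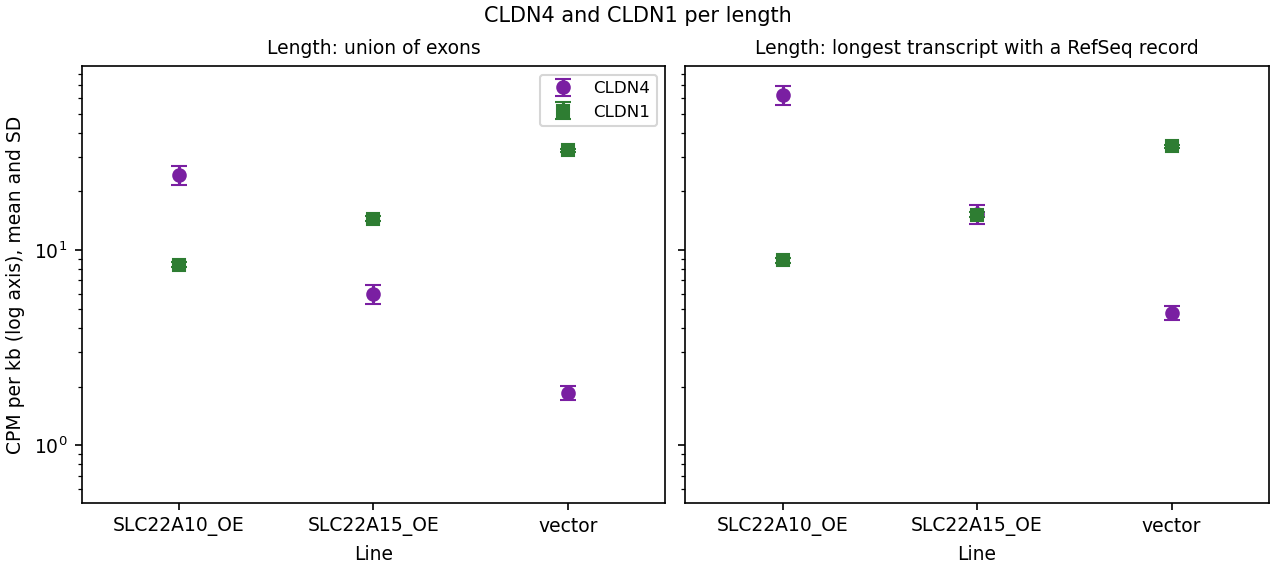
Mean CPM per kb (log axis) of CLDN4 and CLDN1 with the SD over 3 libraries, by the union of exons (left) and by the longest transcript with a RefSeq record (right). The order of the pair is turned round between SLC22A10_OE and vector with either length, and in SLC22A15_OE they meet with the RefSeq length.

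By the union of exons, the order from the highest level was CLDN4, F11R, CLDN1, TJP1, CLDN12, TJP3, OCLN, CLDN3 and CLDN7 in SLC22A10_OE. In SLC22A15_OE it was CLDN1, TJP1, CLDN4, CLDN12, F11R, OCLN, TJP3, CLDN3 and CLDN7. In vector it was CLDN1, TJP1, CLDN12, F11R, CLDN4, OCLN, TJP3, CLDN7 and CLDN3. Neighbours whose libraries overlapped were CLDN3 and CLDN7 in every group, and TJP3 and CLDN3 in SLC22A15_OE.

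Among the 14 claudins analysed, CLDN11, known from myelin and the testis, held the main share in each group. On the same per-length scale CLDN11 made up 69.9 ± 0.412% of claudin transcripts in SLC22A10_OE, 71.6 ± 0.587% in SLC22A15_OE and 67.8 ± 1.36% in vector. CLDN4 made up 13.7 ± 0.816%, 3.78 ± 0.340% and 1.06 ± 0.0615%, and CLDN1 4.75 ± 0.186%, 9.22 ± 0.341% and 18.4 ± 0.778%, in the same groups. The summed level was 178 ± 10.2 CPM per kb in SLC22A10_OE, 157 ± 3.76 in SLC22A15_OE and 176 ± 4.71 in vector. The sum thus differed between groups by less than CLDN4 or CLDN1 did. CLDN11 holds most of it and did not pass against vector in either line, so the sum says little about CLDN4 and CLDN1. With the RefSeq transcripts CLDN4 made up 19.9 ± 1.07% in SLC22A10_OE, 5.97 ± 0.508% in SLC22A15_OE and 1.75 ± 0.0925% in vector. CLDN1 then made up 2.83 ± 0.128%, 5.96 ± 0.247% and 12.5 ± 0.597% in the same groups, so that the pair met in SLC22A15_OE. CLDN11 stayed the main one, at 68.2 ± 0.506%, 75.7 ± 0.267% and 75.2 ± 1.06%. The summed level was then 314 ± 19.5, 255 ± 7.12 and 274 ± 8.94 CPM per kb in these groups.

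Of 18 other claudins listed, 9 were analysed and 6 of these were tested. In SLC22A10_OE 1 passed as higher and 2 as lower, with a median of -0.10, where 67.2% of all genes passed. In SLC22A15_OE 0 of 6 passed (limma), where 20.4% of all genes did. At an unadjusted p under 0.05 the limma fit had 1 of the 6 in SLC22A15_OE, CLDN15, and edgeR and DESeq2 on the recovered reads called 0. CLDN23 was at 2.46 ± 0.382 CPM in SLC22A10_OE, 1.17 ± 0.114 CPM in SLC22A15_OE and 0.831 ± 0.236 CPM in vector (0.92 in SLC22A10_OE, limma adjusted p = 3.54e-05). CLDN5, the claudin of endothelium, was at 0.796 ± 0.268, 2.46 ± 0.549 and 2.31 ± 0.393 CPM in these groups (-0.89, adjusted p = 0.000201). CLDN20 was at 7.53 ± 0.123, 10.4 ± 0.260 and 11.1 ± 0.893 CPM (-0.51, adjusted p = 0.000122). CLDN11 (464, 419.8 and 446 CPM), CLDN15, a pore-forming claudin (15.1, 19.3 and 16.3 CPM), and CLDN18, the claudin of stomach and lung (2.38, 2.01 and 2.56 CPM), did not pass in either line. The changes of all 6 were smaller in size than those of CLDN1 and CLDN4. That pair was listed with its movement known, so nothing is read from this difference.

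Of 12 other membrane proteins listed, 9 were tested, and 2 were higher and 2 lower in SLC22A10_OE, with a median of 0.13, where 67.2% of all genes passed. JAM2, a junctional adhesion molecule best known from endothelium, was at 7.96 ± 0.472 CPM in SLC22A10_OE, 2.26 ± 0.316 CPM in SLC22A15_OE and 2.45 ± 0.201 CPM in vector (1.38, adjusted p = 1.29e-07, limma). The relatives of occludin, MARVELD3 (-0.55) and MARVELD2 (-0.20), were lower there, and VMAC, which is a coiled-coil protein tied to vimentin filaments and not a junction protein, was higher (0.57). VMAC is counted in the 12, in the 9 tested, in the 2 higher and in the medians. In SLC22A15_OE 1 of 9 passed, CXADR, an adhesion molecule that viruses use as a receptor, with 17.9 ± 2.26 CPM against 23.5 ± 1.98 CPM in vector (-0.38, adjusted p = 0.0149). The median there was -0.065, and 20.4% of all genes passed.

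Of 24 other scaffolds and polarity proteins, 21 were tested, and 11 were higher and 4 lower in SLC22A10_OE, with a median of 0.18. This count of 15 of 21 is close to the 67.2% of all genes that passed. AMOTL2, a scaffold of the angiomotin family that binds YAP and polarity proteins, was the most changed and fell to 40.8 ± 1.99 CPM in SLC22A10_OE, beside 149 ± 10.7 CPM in SLC22A15_OE, against 170 ± 12.0 CPM in vector (-2.03, limma adjusted p = 5.2e-11). RAB13, a small GTPase of junction traffic, was at 62.8 ± 4.20 CPM in SLC22A10_OE (1.06), 37.98 ± 3.48 CPM in SLC22A15_OE (0.35) and 29.6 ± 1.502 CPM in vector, and it passed in both lines. PATJ, a polarity scaffold that binds TJP3 and claudins, was at 99.0 ± 1.06 CPM in SLC22A10_OE, 67.5 ± 0.470 CPM in SLC22A15_OE and 61.3 ± 1.44 CPM in vector (0.68 in SLC22A10_OE). YBX3, which binds ZO-1 and acts in transcription, was lower in both lines (-0.38 and -0.32). In SLC22A15_OE 1 was higher and 4 were lower, MAGI3 (-0.52), AMOTL1 (-0.19) and PARD3B (-0.29) besides YBX3, with a median of -0.077, and these 5 of 21 are close to the 20.4% of all genes.

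Of 12 genes of the adherens junction, the belt below the tight junction, 8 were tested, and 5 were higher and 2 lower in SLC22A10_OE, with a median of 0.19, where 34.7% of all genes were higher and 32.5% lower. JUP (plakoglobin), which links cadherins to the cytoskeleton and also serves desmosomes, was at 40.9 ± 4.48 CPM in SLC22A10_OE, 8.72 ± 1.27 CPM in SLC22A15_OE and 5.25 ± 0.701 CPM in vector (2.74 and 0.63, limma adjusted p = 6.73e-10 and 0.00166). The adhesion molecules NECTIN2 (0.82) and NECTIN1 (-0.54) changed in opposite directions in SLC22A10_OE, and CTNNA1, alpha-catenin, was slightly higher (0.19). In SLC22A15_OE JUP, NECTIN3 (0.27) and NECTIN2 (0.31) were higher and AFDN (-0.24), the nectin scaffold afadin, was lower, with a median of 0.020, where 20.4% of all genes passed. CDH1 and CDH2, the main cadherins, were not analysed here.

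Of 9 partners of claudins and membrane proteases, 3 were tested, and all 3 were higher in SLC22A10_OE, where 34.7% of all genes were. SPINT2, an inhibitor of membrane serine proteases, was at 7.46 ± 0.669 CPM in SLC22A10_OE, 1.65 ± 0.0649 CPM in SLC22A15_OE and 0.640 ± 0.288 CPM in vector (2.38 and 0.71, limma adjusted p = 7.23e-09 and 0.0019). The tetraspanins CD9, which associates with CLDN1, and CD81 were higher by 0.43 and 0.23 in SLC22A10_OE and did not pass in SLC22A15_OE (-0.10 and 0.089).

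Of 17 factors known from the control of junction genes, 8 were tested. In SLC22A10_OE 2 were higher and 4 lower, and in SLC22A15_OE 2 were higher and 2 lower, with medians of -0.25 and -0.27. Over all genes 67.2% and 20.4% passed. EHF, an epithelial ETS factor, was at 468 ± 15.5 CPM in SLC22A10_OE, 307 ± 17.0 CPM in SLC22A15_OE and 5.37 ± 0.225 CPM in vector (6.20 and 5.59). ELF3, of the same family, was at 36.0 ± 2.35, 6.92 ± 0.535 and 3.59 ± 0.454 CPM in these groups (3.01 and 0.79, limma adjusted p = 4.82e-11 and 6.03e-05). SLC22A10_OE minus SLC22A15_OE was 2.22 for ELF3 and 0.61 for EHF. KLF4, an epithelial zinc finger factor, was lower in both lines (-0.90 and -0.68), as was ZEB1, a repressor of epithelial genes (-0.28 and -0.31). KLF5 (-0.59) and the splicing factor ESRP2 (-0.45) were lower in SLC22A10_OE and did not pass in SLC22A15_OE (-0.43 and 0.047). The part of these factors in the changes of the junction genes was not tested.

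**Figure D4:**
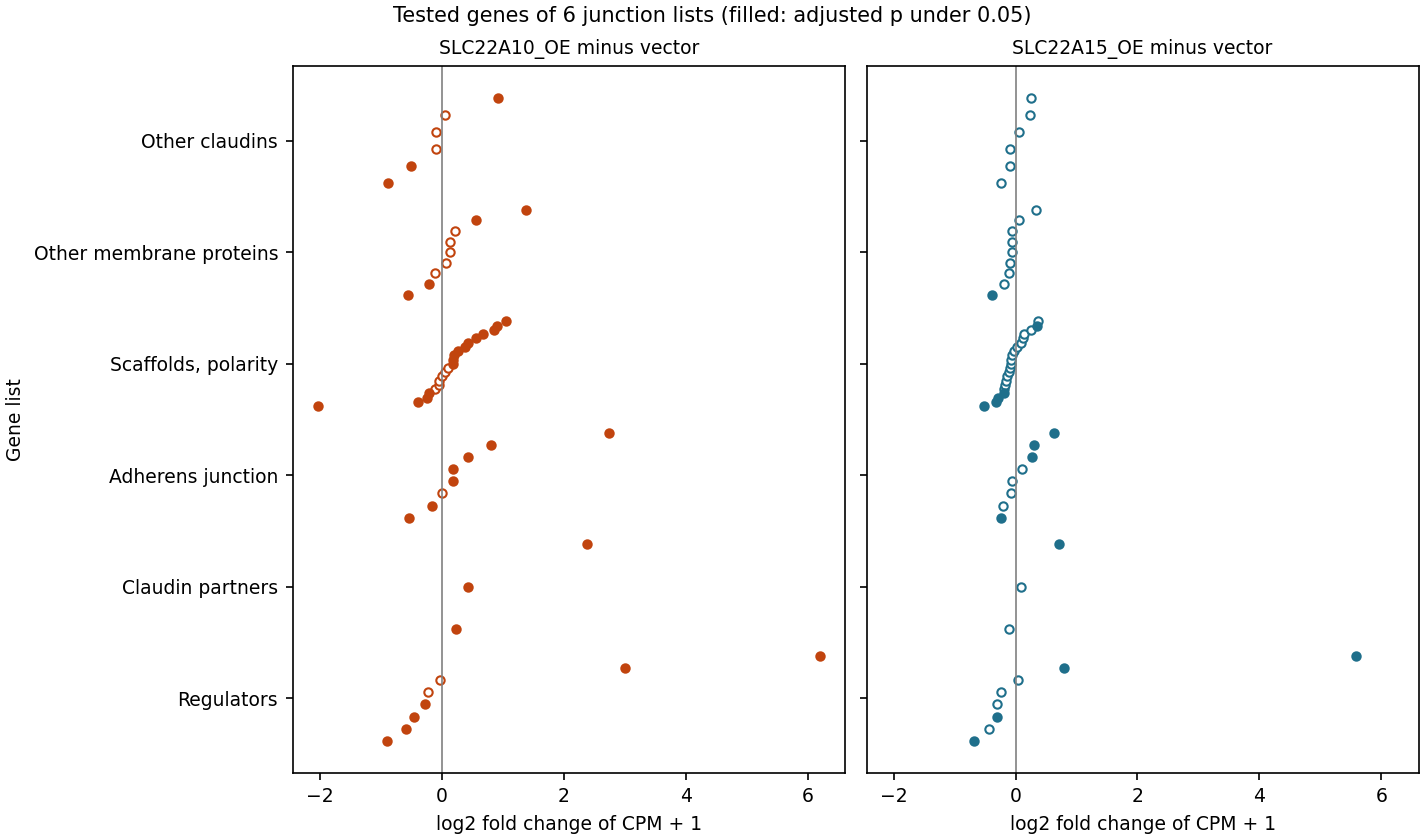
log2 fold change of CPM + 1 against vector for each tested gene of 6 junction lists, sorted by size within a list, SLC22A10_OE left and SLC22A15_OE right, filled where the limma adjusted p was under 0.05. The points farthest from 0 are EHF (6.20 and 5.59), ELF3 (3.01) and JUP (2.74), and on the lower side AMOTL2 (-2.03).

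The genes beside CLDN4 and CLDN1 were read to see whether the changes were shared along the chromosome. Of the 6 nearest tested protein-coding genes of CLDN4, 5 were higher in both lines. Among all genes tested, 34.7% were higher in SLC22A10_OE and 10.8% in SLC22A15_OE. METTL27, whose lowest coordinate lies 3.59 kb from that of CLDN4, changed by 1.43 in SLC22A10_OE and 0.90 in SLC22A15_OE. ABHD11 (0.79 and 0.85), LIMK1 (0.77 and 0.62), BUD23 (0.41 and 0.53) and EIF4H (0.27 and 0.43) were higher as well, and STX1A, a syntaxin, was lower (-1.22 and -0.45). SLC22A10_OE minus SLC22A15_OE was 0.53 for METTL27 and lay between -0.15 and 0.15 for ABHD11, LIMK1, BUD23 and EIF4H, beside 2.00 for CLDN4. The 711 tested genes of chromosome 7 had a median of 0.13 in SLC22A10_OE and 0.16 in SLC22A15_OE, beside 0.0046 and 0.0056 over all genes. CLDN3, which was not tested and so not among these neighbours, lies between ABHD11 and CLDN4 (chr7:73768997-73770270). Its pooled reads were 2.41 and 2.36 times the vector level, from 5 to 20 reads a library. CLDN12, which changed by 0.45 and 0.19, lies farther along chromosome 7, from position 90403461. The part of the chromosome in the changes of CLDN4, CLDN12 and CLDN3 was not tested.

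The genes read beside CLDN1 lay farther off, with lowest coordinates 208 to 2491 kb from its own, beside 3.59 to 343 kb for CLDN4. Their changes were mixed. IL1RAP (-1.07 and -0.51), P3H2 (-0.90 and -0.29) and MB21D2 (-0.56 and -0.29) were lower in SLC22A10_OE and in SLC22A15_OE, and TP63, the squamous p53 relative, was higher in both (0.91 and 0.27). TPRG1 (0.48) and CCDC50 (0.17) were higher in SLC22A10_OE and did not pass in SLC22A15_OE. Among all genes tested, 67.2% passed in SLC22A10_OE and 20.4% in SLC22A15_OE. The 793 tested genes of chromosome 3 had medians of -0.060 in SLC22A10_OE and -0.039 in SLC22A15_OE.

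**Figure D5:**
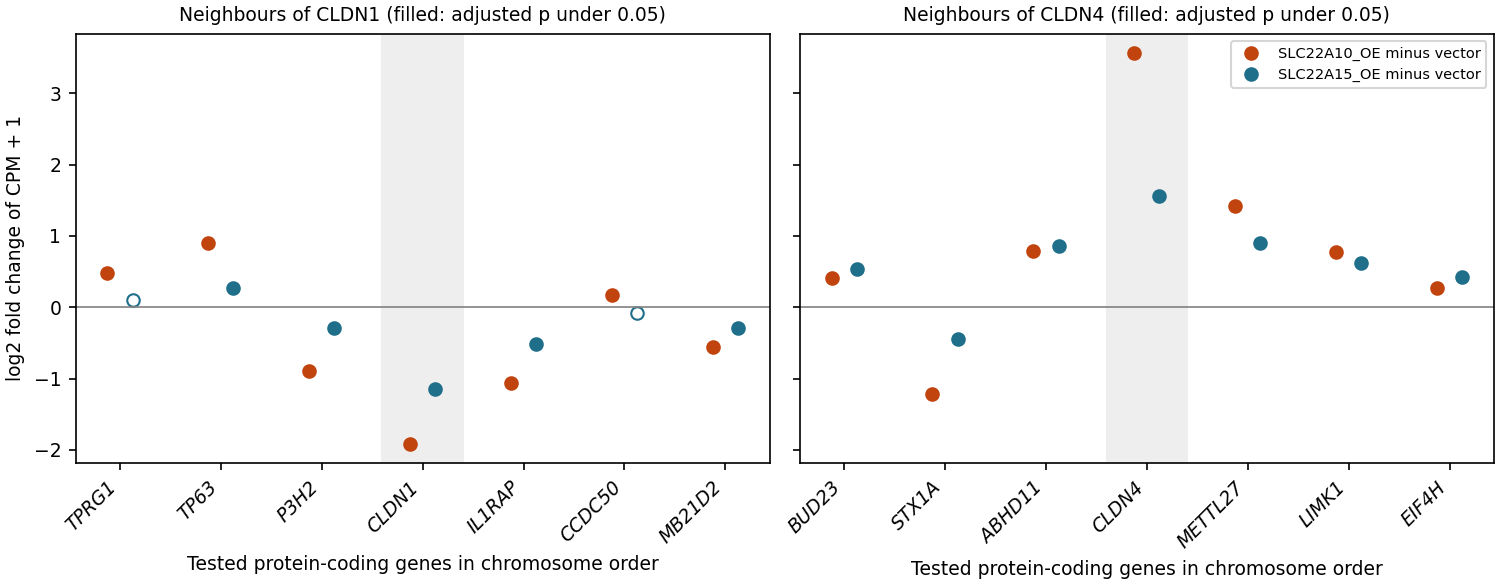
log2 fold change of CPM + 1 against vector of CLDN1 (left) and CLDN4 (right), shaded, and the 3 nearest tested protein-coding genes on each side in chromosome order, filled where the limma adjusted p was under 0.05. Of the neighbours of CLDN4, 5 of 6 lie above 0 in both lines, all below CLDN4 itself, and those of CLDN1 lie on both sides of 0.

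The genes whose levels over the 9 libraries were nearest to CLDN1, by the root mean square difference of log2(CPM + 1) from the vector mean, were JUN (0.096), MYH16 (0.16) and SMAD7 (0.17). JUN, a subunit of AP-1, was at 60.2 ± 2.82 CPM in SLC22A10_OE, 98.7 ± 7.28 CPM in SLC22A15_OE and 233 ± 11.04 CPM in vector. SMAD7, an inhibitor of TGF-beta signalling, was at 1.23 ± 0.184, 2.15 ± 0.436 and 7.04 ± 0.704 CPM. Nearest to CLDN4 were ZNF467 (0.14), SECTM1 (0.22) and NTS (0.28). ZNF467, a zinc finger protein, was at 44.3 ± 3.53 CPM in SLC22A10_OE, 12.6 ± 1.33 CPM in SLC22A15_OE and 2.95 ± 0.305 CPM in vector. NTS, the precursor of neurotensin, was at 22.1 ± 2.85, 4.28 ± 0.351 and 0.603 ± 0.119 CPM. These likenesses describe 9 libraries in 3 groups and carry no test.

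Markers of other cells were read beside these results. KRT19, a keratin of duct cells, was at 216 ± 16.8 CPM in SLC22A10_OE, 70.2 ± 5.30 CPM in SLC22A15_OE and 73.2 ± 7.65 CPM in vector. KRT18, another simple keratin, was at 99.2 ± 3.23, 95.4 ± 0.373 and 162 ± 1.47 CPM, in the same groups. Of the 4 duct markers tested, KRT19 (1.55) and SOX9 (0.30) were higher and KRT18 (-0.70) lower in SLC22A10_OE, and KRT8 did not pass (-0.038). In SLC22A15_OE KRT8 (-0.93), KRT18 (-0.75) and SOX9 (-0.56) were lower and KRT19 did not pass (-0.057), with a median of -0.66 (limma). Beside these, 67.2% of all genes passed in SLC22A10_OE and 20.4% in SLC22A15_OE. Of 5 endothelial markers 2 were analysed, CDH5 and CLDN5, and their sum was 7.20 to 8.501 CPM in SLC22A10_OE, 4.73 to 5.49 CPM in SLC22A15_OE and 2.84 to 3.999 CPM in vector. CDH5 rose (1.90 and 0.81) where CLDN5 fell in SLC22A10_OE. Of 4 immune markers 1 was analysed, CD14, at 7.52 to 9.14 CPM in SLC22A10_OE, 0.806 to 1.02 CPM in SLC22A15_OE and 0.563 to 0.689 CPM in vector. Of 4 acinar markers CTRB1 was analysed, below 0.7 CPM throughout, and the 3 fibroblast markers, with PECAM1, VWF and PTPRC, were not analysed here. The part of other cells in the changes of the junction genes was not tested.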

How the data were processed

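CPM values of 16750 genes, under Entrez gene numbers, were deposited by the authors for each library. For each line against vector they deposited a table with log2 fold change, mean log2 CPM, an F score, p-value, FDR and the −log10 of the FDR, per the file headers. The submitters' processing notes name edgeR and the builds hg38 and mm9 without roles. No source used here names the aligner, the counter, the annotation or the use of strand. Per the labels, 500 ng of total RNA was depleted of ribosomal RNA and sequenced in pairs of 150 bases from a strand-specific kit. Symbols came from the authors' deposited tables.

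The main test was limma (3.58.1, R 4.3.3) on log2(CPM + 1) with a variance trend, 9 libraries in 1 fit (6 residual degrees of freedom), over 14554 genes with at least 1 CPM in at least 3 libraries. P-values were two-sided and Benjamini-Hochberg adjusted over these genes (threshold 0.05). Every deposited CPM value gave a whole number of reads within 0.1 (100% of values), and edgeR (4.0.16) and DESeq2 (1.42.0) were run on those reads as alternatives. The other alternatives were a pseudocount of 0.25 CPM, no filter, median centring, only the 2 groups compared, a replicate block, a term for low mitochondrial ribosomal RNA, and leaving out each library. The procedure was also run on simulated data in which few of the genes changed, unlike in these data. That run does not measure the error of the calls given here.

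A gene at 1 CPM held 27.8 to 43.4 reads. The lowest library count was 289 reads for CLDN4, 882 for CLDN1 and 49 for TJP3 (counting SD 14.3%). Exon lengths and overlaps came from GENCODE release 29, and positions and promoters from RefSeq (GRCh38.p14). Titles carry A1, A2 and B1 and columns 1 to 3, which could not be matched. Deviations of same-numbered columns of SLC22A15_OE and vector correlated (0.566, 0.315 and 0.194), so a blocked fit of these groups was added after the data were seen. Those of SLC22A10_OE did not (-0.411 to 0.143 with vector). Some columns of different numbers correlated too, as SLC22A15_OE 3 with vector 2 (0.3485) and SLC22A10_OE 3 with vector 1 (0.517). Others did not, as SLC22A15_OE 1 with vector 2 (-0.484). The column number is thus no proof of a pairing, and the blocked fits rest on it.

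Members and lists were chosen with earlier results of these data known, among them that CLDN1 and CLDN4 move apart. The named genes were all members, the tested other claudins, up to 4 passing genes per list and comparison with the smallest adjusted p, the 3 nearest profiles and the 3 nearest neighbours on each side of CLDN1 and CLDN4. PARD3B and ESRP2 were named after their values were seen, as were marker genes.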

Additional observations from a re-analysis of the deposited data

How the results depend on the processing

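The directions and calls of CLDN1, CLDN4 and F11R held in all 3 comparisons under each alternative run, 18 for each comparison with SLC22A10_OE and 19 for SLC22A15_OE against vector, edgeR and DESeq2 included. Against vector the log2 fold change of CLDN4 ran from 3.44 to 3.71 in SLC22A10_OE and from 1.48 to 1.67 in SLC22A15_OE, and that of CLDN1 from -2.03 to -1.89 and from -1.18 to -1.13. Members called numbered 6 to 8 of those tested in SLC22A10_OE and 3 to 6 in SLC22A15_OE against vector, and 6 or 7 between the lines. With the column number as a replicate block over all 9 libraries they were 7, 4 and 7, as without it, and with the replicate block in SLC22A15_OE and vector alone they were 6. As stated for TJP1, p-values of this last fit, and of those on mitochondrial ribosomal RNA, are not on a level with the main fit. Leaving out 1 library gave 7, 3 to 5, and 7. TJP3 in SLC22A15_OE against vector did not pass in any setting and lay between -0.094 and 0.11 with 1 library left out, above 0 without SLC22A15_OE 2 (0.11) and without vector 1 (0.048). The order of levels per length in SLC22A10_OE kept 5 of 9 genes at their place with the longest transcript and 5 with the longest RefSeq transcript. With 5 to 20 reads a library for CLDN3 and 11 to 31 for CLDN7, the counting intervals of their ratios are wide. Where a library or a term changed a call, the cause was not tested.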

Other observations

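A few listed genes stayed below the filter and had no test. OVOL2, a repressor of mesenchymal genes in epithelia, was at 1.24 ± 0.380 CPM in SLC22A10_OE, 0.655 ± 0.117 CPM in SLC22A15_OE and 0.170 ± 0.0725 CPM in vector (SD, n = 3 each). CDH3, P-cadherin, was at 0.647 ± 0.157, 0.238 ± 0.0870 and 0.269 ± 0.135 CPM in the same groups. CGNL1 (paracingulin), a scaffold of the junction, was at 0.951 ± 0.347, 0.484 ± 0.121 and 0.529 ± 0.344 CPM. CLDN2, a claudin that forms cation pores, was at 0.0745 ± 0.0881, 0.239 ± 0.192 and 0.324 ± 0.118 CPM.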
